A study of Mus musculus and Rattus norvegicus with 30 samples.

Results

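The clustered Hox genes of mouse and rat lumbar dorsal root ganglia (DRG) are described here together with Haglr, a long noncoding RNA (LncRNA) of the HoxD cluster. Every gene whose symbol is Hoxa, Hoxb, Hoxc or Hoxd followed by a number was taken, with no use of its measured level. Haglr (ENSMUSG00000075277) was added, and the study had already reported it as lower after nerve injury in both mouse strains. In mouse this gave 40 genes of 54315 features, 39 Hox genes and Haglr, of which 11 lie in the HoxA, 10 in the HoxB, 9 in the HoxC and 10 in the HoxD cluster. In rat it gave 35 entries of 39281 features, 8 in HoxA, 10 in HoxB, 9 in HoxC and 8 in HoxD.

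The DRG holds the cell bodies of the sensory neurons that reach skin, muscle and viscera, with their satellite glia and Schwann cells. The mouse samples were ribosomal RNA-depleted libraries from adult animals of 2 inbred strains, BALB/c and B10.D2, each made from the L3 and L4 ganglia of 1 animal, 28 days after spared nerve injury (SNI, which cuts the common peroneal and sural nerves and spares the tibial nerve) or after sham surgery. Sham surgery was represented by 6 BALB/c and 5 B10.D2 libraries and SNI by 4 BALB/c and 5 B10.D2 libraries, with both sexes in each group, and they are named below by the sample number in their titles. The rat samples were 4 sham and 4 spinal nerve transection (SNT, ligation and cutting of the L5 spinal nerve) libraries of polyadenylated RNA from the L5 ganglia of adult male Wistar rats, 21 days after surgery, each made from 3 pooled rats. The mice were bought at 4 to 8 weeks of age. Replicates are separate mice or separate pools of rats.

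Hox genes encode homeodomain transcription factors that give cells their position along the head-to-tail axis of the embryo. They are numbered by paralog group, from 1 at the anterior (3′) end of a cluster to 13 at the posterior (5′) end, and genes of higher number are switched on later and further back in the body. Many adult cells keep the set of Hox genes of the level at which they arose, and in spinal ganglia the posterior groups are known for marking lumbar and sacral levels. Hox proteins bind DNA with TALE homeodomain partners (the Pbx, Meis and Pknox proteins), Polycomb proteins keep silent Hox genes closed, and several LncRNAs are transcribed within the clusters.

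Total counts were 29989963 to 41881331 per mouse library and 11954612 to 17887909 per rat library, and the Hox genes and Haglr together took 0.0230% to 0.0296% of them in mouse and 0.00837% to 0.0106% in rat. Counts were scaled to a fixed library total (CPM) with TMM factors, which correct for the composition of a library, and divided by exon length to RPKM wherever genes were compared with each other. At these depths a count of 3 corresponded to 0.0716 to 0.100 CPM in mouse and to 0.168 to 0.251 CPM in rat. Sensory neuron markers summed to 5961 to 7421 CPM in mouse. The 5 spinal cord markers summed to 6.03 to 17.7 CPM, most of it from Aqp4 (6.03 to 17.6 CPM), while Olig2, Mnx1, Chat and Slc6a5 reached at most 0.0603, 0.0815, 0.161 and 0.251 CPM. Injured-neuron markers (Atf3, Sprr1a, Gal, Sox11 and Csf1) summed to 46.6 to 78.6 CPM in mouse sham, 312 to 457 CPM in BALB/c SNI and 107 to 237.1 CPM in B10.D2 SNI. Skeletal muscle genes stood at 1265 CPM in BALB/c sham library 50 and at 498 CPM in BALB/c SNI library 49, against 7.42 to 92.8 CPM in the other mouse libraries. In rat the injured-neuron markers summed to 124, 143, 130 and 406 CPM in sham and to 543, 766, 583 and 830 CPM after SNT, so that sham library 4 stood apart from its group.

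Promoter sequences are shown for some of the genes, from RefSeq on GRCm38.p6, as 250 bases before the start and 30 after it. Of the 40 mouse genes, 22 had an entry, with 24 start sites among them. Hoxb9 and Hoxb7 had none, and Hoxa9 and Hoxa10 are among those with an entry that are not printed. The first sequence is shown because it lies between a pair of genes that were both lower after injury in BALB/c. Hoxd1 (chr2:74762980-74765142, plus strand) and Haglr (chr2:74748422-74762896, minus strand) start back to back, and the capitals mark the 83 bases that separate their starts, in the window chr2:74762730-74763009 on the plus strand.
Hoxd1 and Haglr: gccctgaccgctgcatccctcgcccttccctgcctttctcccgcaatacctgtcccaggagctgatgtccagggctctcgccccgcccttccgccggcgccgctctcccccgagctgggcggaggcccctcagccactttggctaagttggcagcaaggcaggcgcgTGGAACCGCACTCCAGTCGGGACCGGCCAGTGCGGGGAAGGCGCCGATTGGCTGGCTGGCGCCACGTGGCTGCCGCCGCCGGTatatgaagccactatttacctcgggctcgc

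The next sequences belong to Hoxb8 (chr11:96281655-96281934, plus strand), which was called lower after injury in BALB/c, and to Hoxa11 (chr6:52245781-52246060, minus strand), Hoxd10 (chr2:74691641-74691920, plus strand) and Hoxd11 (chr2:74679308-74679587, plus strand), whose levels varied widely between libraries. Hoxc11, which varied more than these, had no entry. Capitals mark CG dinucleotides, of which these windows held 13, 15, 21 and 3.
Hoxb8: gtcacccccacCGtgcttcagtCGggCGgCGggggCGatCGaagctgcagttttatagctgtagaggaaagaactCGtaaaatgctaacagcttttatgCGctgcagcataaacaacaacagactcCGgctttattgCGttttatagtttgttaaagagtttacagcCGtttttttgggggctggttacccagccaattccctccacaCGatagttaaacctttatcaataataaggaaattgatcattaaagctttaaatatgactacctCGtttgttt
Hoxa11: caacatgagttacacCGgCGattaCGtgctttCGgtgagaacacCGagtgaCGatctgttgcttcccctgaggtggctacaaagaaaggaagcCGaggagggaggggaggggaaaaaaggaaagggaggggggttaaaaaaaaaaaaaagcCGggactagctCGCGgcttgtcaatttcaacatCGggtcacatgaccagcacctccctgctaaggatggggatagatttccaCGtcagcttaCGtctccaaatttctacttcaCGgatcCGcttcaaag
Hoxd10: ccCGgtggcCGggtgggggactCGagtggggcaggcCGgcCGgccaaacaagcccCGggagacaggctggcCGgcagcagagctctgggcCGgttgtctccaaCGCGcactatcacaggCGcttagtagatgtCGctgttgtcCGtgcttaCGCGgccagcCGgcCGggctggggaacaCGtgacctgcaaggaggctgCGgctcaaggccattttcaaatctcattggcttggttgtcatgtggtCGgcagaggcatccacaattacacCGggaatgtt
Hoxd11: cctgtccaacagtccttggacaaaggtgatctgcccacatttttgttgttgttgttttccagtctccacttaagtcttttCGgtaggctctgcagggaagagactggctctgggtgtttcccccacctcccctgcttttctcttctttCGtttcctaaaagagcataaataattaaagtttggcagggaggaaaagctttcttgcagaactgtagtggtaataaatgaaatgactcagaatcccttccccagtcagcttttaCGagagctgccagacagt

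Over the full 300-base windows the Hox promoters held a median of 14.5 CG dinucleotides, from 4 to 45, beside 7 for all 32851 promoters of the table. Motifs were searched on both strands as plain letters. The TATA box (TATAAA) was in 4 of the 24 windows and in 13.6% of all promoters, the Pbx-Hox motif (TGATNNAT) in 4 and in 8.85%, the posterior Hox motif (TTTATNG) in 2 and in 10.9%, and the CCAAT box (CCAAT) in 15 and in 37.4%. TATAAA and the reverse of TTTATNG can lie on the same letters. The window of Hoxb8 held all 4 motifs, those of Hoxd1 and Hoxd10 held CCAAT alone, and those of Hoxa11 and of the Hoxd11 start shown held none of them.

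In the mouse ganglion the level per length, summed over the genes of a paralog group, was low in groups 1 to 3. It was highest in groups 9 and 10 and near 0 beyond group 11. A group holds 2 to 4 genes, with 2 in group 7, 4 in group 9 and 3 in group 10. The sums therefore also follow the number of genes and do not rank the groups per gene. The mean of this sum over the 20 libraries was 3.50 ± 0.53 RPKM (SD, n = 20) for group 1, 1.46 ± 0.21 for group 2 and 3.04 ± 0.22 for group 3. It was 9.19 ± 0.59 RPKM for group 4, 7.38 ± 0.78 for group 5, 11.4 ± 1.0 for group 6, 10.8 ± 1.0 for group 7 and 12.2 ± 1.2 for group 8. Groups 9 and 10 stood highest, at 17.0 ± 1.4 and 15.01 ± 4.56 RPKM. Group 11 was at 2.55 ± 1.67 RPKM, and groups 12 and 13 were at 0.00870 and 0.00828 RPKM. The ranges over libraries of groups 4 and 5 overlapped, as did those of groups 6 and 7, 7 and 8, 8 and 9, 12 and 13, and 9 and 10 (14.5 to 19.0 and 7.21 to 22.7 RPKM). The other neighbours did not overlap, among them group 3 (2.66 to 3.41 RPKM) and group 4 (8.11 to 10.4 RPKM), and group 10 and group 11 (0.108 to 5.12 RPKM). The SD over the 20 libraries takes all 4 groups together.

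**Figure D1:**
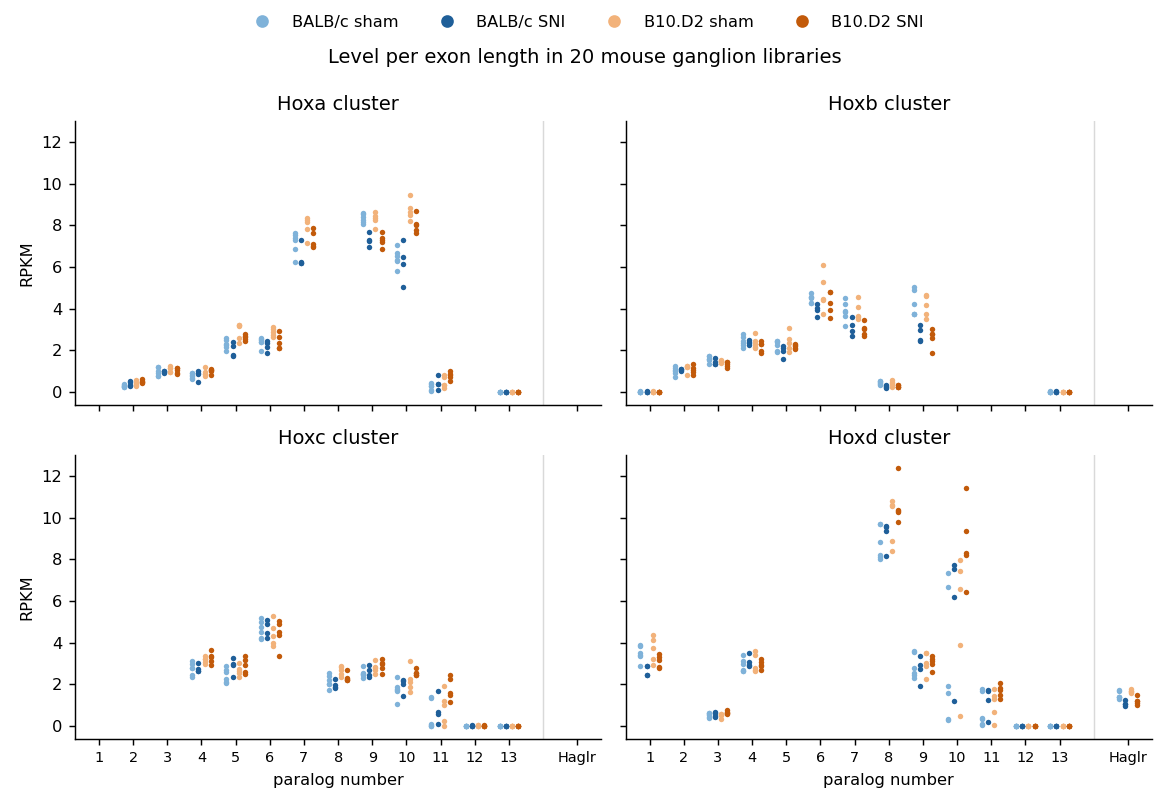
Level of 39 mouse genes, Haglr included, in RPKM (vertical axis) by paralog number (horizontal axis) in the 4 clusters; each point is 1 of 20 libraries, coloured by strain and surgery. In the A cluster groups 7, 9 and 10 are highest, Hoxd8 has the highest mean per union exon length, Hoxd10 spreads from 0.292 to 11.4 RPKM, and groups 12 and 13 lie at the floor.

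Per union exon length, Hoxd8 was the highest single gene at a mean of 9.58 RPKM, followed by Hoxa9 (7.86), Hoxa10 (7.38), Hoxa7 (7.26) and Hoxd10 (5.54). The first 4 of these overlapped in their ranges across libraries, so that their order held only on average. In BALB/c sham, Hoxd8 stood at 8.76 ± 0.77 RPKM (SD, n = 6), Hoxa9 at 8.33 ± 0.21, Hoxa10 at 6.45 ± 0.41 and Hoxa7 at 7.15 ± 0.52. In all, 26 of the 40 genes averaged at least 1 RPKM. With the length of the longest transcript in place of the union of exons Hoxa9 led at 13.6 RPKM, since its annotated exons (5580 bases) run far beyond those of 1 transcript (3226 bases). Hoxd3 and Hoxd4 share 62.3% and 52.3% of their exon bases with each other or with the readthrough gene Gm28230, and on unshared bases alone Hoxd3 stood at 1.47 in place of 0.553 RPKM and Hoxd4 at 6.26 in place of 2.98 RPKM, so that these levels are uncertain. For 31 of the 40 genes no exon base was shared on the same strand.

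By cluster, HoxA gave 32.1% of the summed RPKM (29.4% to 35.8% over libraries), HoxD 28.6% (22.1% to 35.5%), HoxB 20.1% (14.2% to 25.6%) and HoxC 19.2% (16.7% to 21.004%). Each cluster had its own shape. In HoxA the level went from 0.391 RPKM at Hoxa2 and 1.02 RPKM at Hoxa3 over 2.48 RPKM at Hoxa5 to the high genes Hoxa7, Hoxa9 and Hoxa10, and Hoxa11 stood at 0.480 RPKM. In HoxB the level reached 4.41 RPKM at Hoxb6 and 3.51 RPKM at Hoxb9, but Hoxb8 between them stood at 0.359 RPKM, its highest library (0.561 RPKM) lying below the lowest of Hoxb7 (2.70 RPKM) and of Hoxb9 (1.85 RPKM). HoxC peaked at Hoxc6 (4.54 RPKM) and held 2.09 RPKM at Hoxc10. HoxD began high, with Hoxd1 at 3.27 RPKM, and Haglr beside it stood at 1.37 RPKM.

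The genes at the posterior tips, and Hoxb1, were nearly silent. Hoxa13, Hoxb1, Hoxb13, Hoxc12, Hoxc13 and Hoxd12 had at most 3 counts in any library, and Hoxd13 was listed at 0 in all 20 libraries, which allows up to 0.0716 to 0.100 CPM at these depths. These 7 genes were too low to be tested, and 33 of the 40 were tested. Of the other transcripts at the clusters, Evx1 (beside HoxA) was at 0, Evx2 (beside HoxD) reached 0.0284 CPM and the noncoding RNA Hottip, at the posterior end of HoxA, reached 0.0241 CPM.

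The level of most Hox genes was steady between libraries of a group, but 4 posterior genes were not. Hoxd10 ran from 0.530 to 20.7 CPM, Hoxd11 from 0.0877 to 8.73, Hoxc11 from 0 to 4.95 and Hoxa11 from 0.150 to 2.34 CPM. They are among the most posterior Hox genes with an appreciable level in these ganglia. The residual SD of their log2 CPM within groups was 1.51, 1.83, 2.08 and 0.82, which placed them at percentiles 99.93, 99.97, 99.99 and 98.8 of all 24685 features tested. Among the 10082 features with a mean of 1 to 20 CPM, 13 had a larger residual SD than Hoxd10 and 6 a larger one than Hoxd11. By contrast Hoxa9, next to the variable genes in paralog number, had a residual SD of 0.05, at percentile 2.64, and the median over the 33 tested genes was 0.177 beside 0.179 for all features.

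The same libraries were low in Hoxd10, Hoxd11 and Hoxc11. In BALB/c sham, Hoxd10 stood at 3.46, 0.626, 2.87, 0.530, 13.3 and 12.1 CPM in libraries 50, 51, 55, 56, 57 and 71. In BALB/c SNI it stood at 2.21 CPM in library 49 and at 11.2, 13.7 and 14.01 CPM in libraries 64, 65 and 70. In B10.D2 sham it was 0.848 CPM in library 58, 7.03 in library 60 and 11.95, 13.5 and 14.46 in libraries 67, 77 and 88. The low libraries were thus 49, 50, 51, 55, 56 and 58, in both strains and both surgeries, with library 60 in between and library 57 high. In B10.D2 SNI all 5 libraries were high, at 15.05, 20.7, 11.7, 17.0 and 14.9 CPM. Hoxd11 was at or below 1.55 CPM and Hoxc11 at or below 0.162 CPM in the 6 low libraries, while Hoxd11 was at or above 5.27 CPM and Hoxc11 at or above 1.10 CPM in every library numbered above 60.

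The libraries numbered up to 60 held Hoxd10 at a median of 2.54 CPM (0.530 to 13.3, n = 8), and those above 60 at 13.9 CPM (11.2 to 20.7, n = 12). For Hoxc10 the medians were 3.21 and 4.56 CPM and the ranges 1.98 to 3.59 and 3.81 to 5.91 CPM, which did not overlap. Hoxa9 stood at 46.1 and 42.1 CPM with overlapping ranges. The bound of 60 was chosen after the values were seen and what the numbers stand for is not given in the sources used here, so no test was made. The noncoding RNA Hotair, which lies between Hoxc11 and Hoxc12, ranged from 0 to 1.45 CPM (percentile 99.9 of residual SD) and was at most 0.0649 CPM in the 6 low libraries, and Hoxa11os, antisense to Hoxa11, ranged from 0.0501 to 1.04 CPM (percentile 97.3). Surgery and strain were unevenly spread over the numbers, since 5 of 6 BALB/c sham, 1 of 4 BALB/c SNI, 2 of 5 B10.D2 sham and 0 of 5 B10.D2 SNI libraries were numbered up to 60. A model term for sample numbers up to 60 was added as an alternative chosen after seeing the data. Its values are given below where they change the call of a Hox gene.

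**Figure D2:**
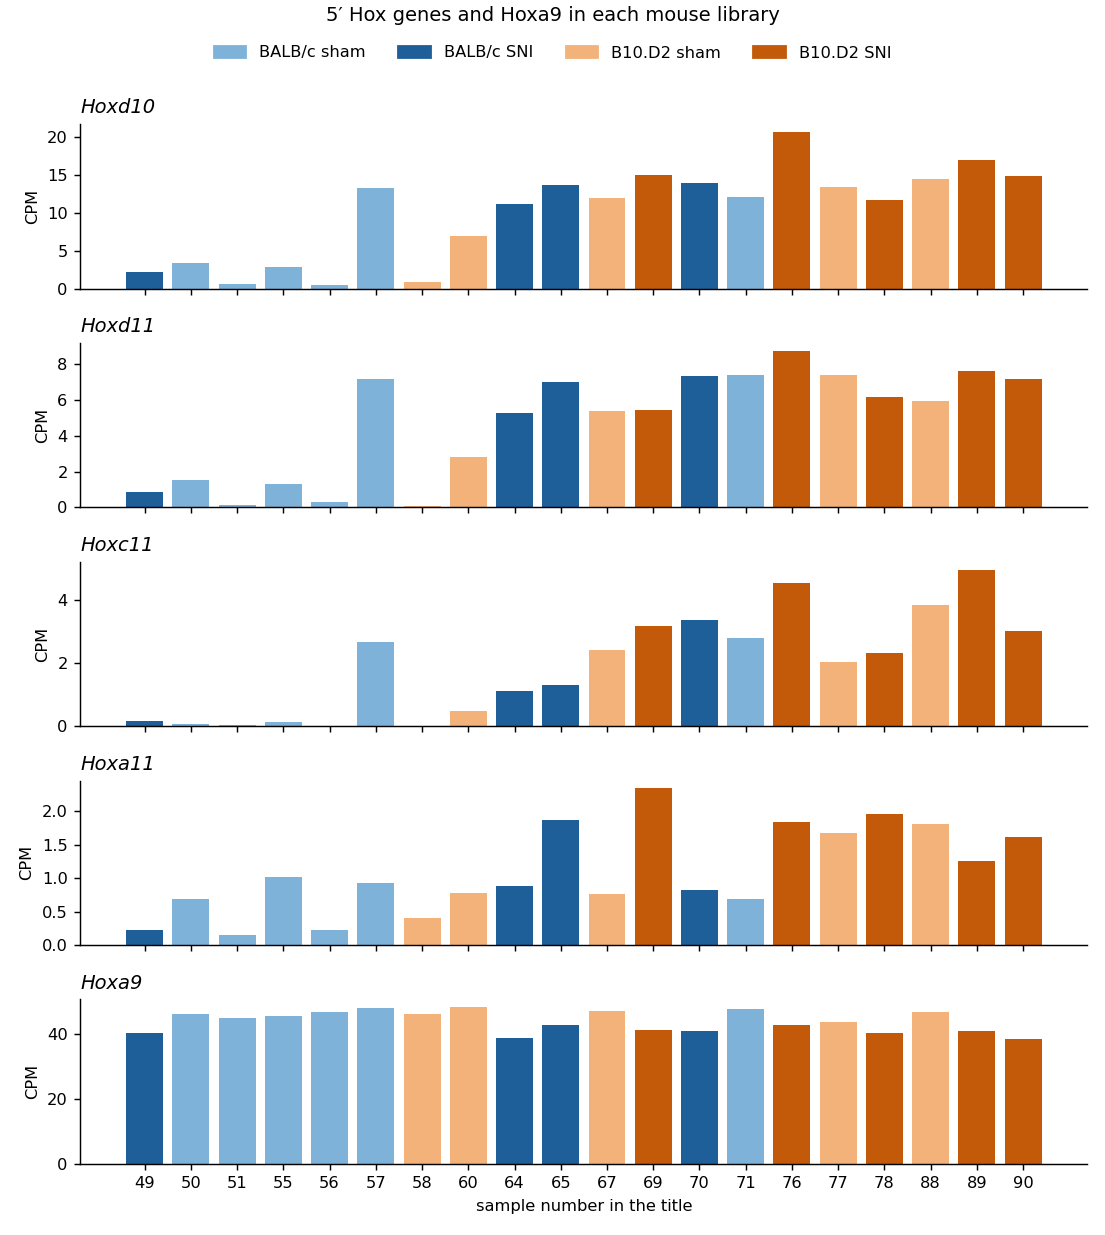
CPM (vertical axes, starting at 0) of Hoxd10, Hoxd11, Hoxc11, Hoxa11 and Hoxa9 in each of the 20 mouse libraries, ordered by the sample number in the title and coloured by strain and surgery. Hoxd10 stays at or below 3.46 CPM in libraries 49, 50, 51, 55, 56 and 58 and reaches at least 11.2 CPM in every library above 60, while Hoxa9 stays between 38.3 and 48.2 CPM throughout.

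The question of the mouse experiment was which transcripts change after nerve injury and whether the strains differ in it. After SNI in BALB/c, 5 of the 33 tested Hox genes passed the test (edgeR quasi-likelihood, Benjamini-Hochberg adjustment over all features, adjusted p under 0.05), and all 5 were lower: Hoxb9, Hoxb8, Hoxa9, Hoxd1 and Haglr. Of all features 9.69% were called in that comparison and 4.87% were called lower. After SNI in B10.D2, 4 of 33 passed, again all lower: Hoxb9, Hoxa9, Haglr and Hoxb7. The background there was 4.58% called and 2.48% called lower. Hoxb9, Hoxa9 and Haglr were called in both strains. Haglr is counted among the Hox genes here, though the study had already reported its fall from these libraries, so its calls are no separate evidence. With 1 sample per animal, a lower level in ganglion RNA cannot tell fewer cells with the transcript from less of it per cell.

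The median log2 change of the tested Hox genes was -0.00 in BALB/c and -0.12 in B10.D2, beside 0.00 and 0.01 for all features. Of the 33 estimates 17 and 20 were negative (51.5% and 60.6%), beside 49.3% and 48.0% of all features. At an unadjusted p under 0.05 there were 6 Hox genes in each strain, and DESeq2 called 6 and 4. Without libraries 49 and 50 the counts called were 5 and 3, and with the term for sample numbers 2 and 3. No share of all features was taken at that unadjusted threshold or in these other settings. Sensory neuron markers (8 genes) summed to a median of 7198 CPM in BALB/c sham and 6194 CPM after SNI, with ranges of 6592 to 7421 and 6044 to 6921 CPM, and to 7162 and 6269 CPM in B10.D2, with ranges of 6364 to 7302 and 5961 to 7029 CPM. Fibroblast and mesenchyme markers (5 genes) ran from 952 over a median of 1198 to 1363 CPM in BALB/c sham and from 1118 over 1345 to 1741 CPM after SNI. In B10.D2 they ran from 1178 over 1204 to 1234 CPM in sham and from 1119 over 1554 to 1720.4 CPM after SNI, where 4 of the 5 libraries lay above every sham library. Immune markers (4 genes) had medians of 25.1 CPM in BALB/c sham and 38.88 CPM after SNI, and of 39.6 and 50.01 CPM in B10.D2, with overlapping ranges. The spinal cord markers, mostly Aqp4, stood at 6.83 to 13.3 CPM in BALB/c sham and 6.03 to 6.75 CPM after SNI, and overlapped between surgeries in B10.D2. The sums of satellite glia, Schwann cell, endothelium, skeletal muscle, and bone and cartilage markers overlapped between surgeries in both strains. The part of any of these markers, or of the injured-neuron markers above, in the Hox results was not tested.

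**Figure D3:**
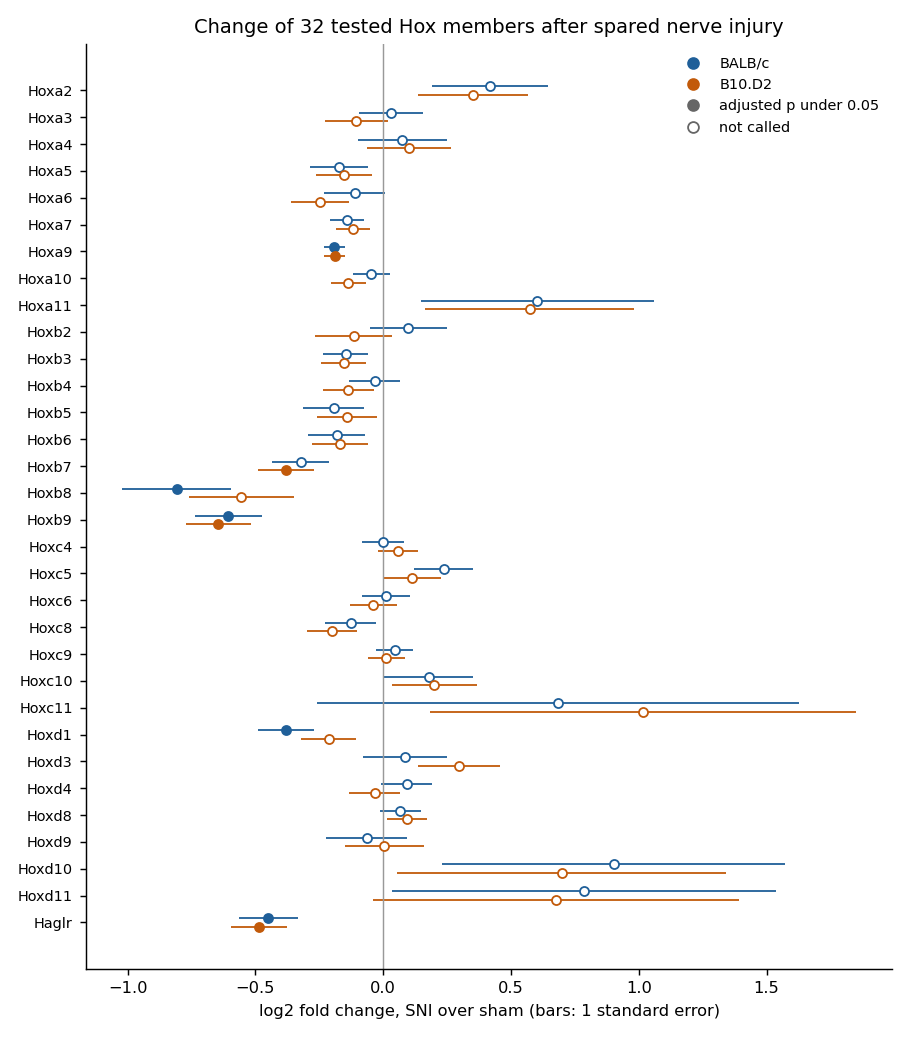
Log2 fold change after SNI over sham (horizontal axis) for 32 tested mouse genes, Haglr included, in BALB/c and B10.D2, with bars of 1 standard error and filled points for adjusted p under 0.05. Hoxb7, Hoxb8, Hoxb9, Hoxa9, Hoxd1 and Haglr lie below 0 in both strains, and Hoxa11, Hoxc11, Hoxd10 and Hoxd11 have bars many times wider than those of Hoxa9.

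In BALB/c the largest called changes were those of Hoxb8 and Hoxb9. B10.D2 had its largest at Hoxb9, followed by Haglr. Hoxb9 (ENSMUSG00000020875, chr11:96271457-96276595, plus strand) is a posterior HoxB gene of thoracic and lumbar segments. In BALB/c sham it ran from 9.59 over a median of 10.3 to 12.97 CPM, and after SNI it was 7.62, 8.33, 6.25 and 6.41 CPM. In B10.D2 it was 11.9, 11.97, 9.59, 10.8 and 9.05 CPM in sham and 6.67, 4.77, 7.18, 7.84 and 7.20 CPM after SNI. Every SNI library lay below every sham library of its strain. The log2 change was -0.61 (SE 0.13, adjusted p = 0.00434) in BALB/c and -0.65 (SE 0.13, adjusted p = 0.00418) in B10.D2.

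Hoxb8 (ENSMUSG00000056648, chr11:96281905-96285315, plus strand) had the lowest level in RPKM of the genes called after SNI. It ran from 0.894 over 1.18 to 1.40 CPM in BALB/c sham and was 0.843, 0.702, 0.518 and 0.624 CPM after SNI, again with no overlap. Its log2 change was -0.81 (SE 0.21, adjusted p = 0.0183) in BALB/c and -0.55 (SE 0.21, adjusted p = 0.146) in B10.D2, where it did not pass. Hoxb8 rests on few reads, at most 56 in a library. The BALB/c value did not pass with a term for sample numbers up to 60 (-0.58, adjusted p = 0.113), nor without SNI library 65 (adjusted p = 0.0748) or SNI library 70 (adjusted p = 0.0557).

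Hoxb7 (ENSMUSG00000038721, chr11:96286623-96290162, plus strand) was 7.07, 6.33, 5.57, 5.64 and 5.43 CPM in B10.D2 sham and 5.30, 4.26, 4.78, 4.66 and 4.17 CPM after SNI. The groups did not overlap, and the log2 change of -0.38 (SE 0.11) lay at the threshold (adjusted p = 0.0499). In BALB/c it was -0.32 (SE 0.11, adjusted p = 0.0737). The call in B10.D2 was lost in 5 of 7 other settings, among them RLE factors (adjusted p = 0.0508) and the term for sample numbers (adjusted p = 0.125), and without any of 16 of the 20 libraries.

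Of the tested HoxB genes the 3 of highest paralog number had the most negative estimates. The log2 changes were 0.10, -0.15, -0.03, -0.19 and -0.18 in BALB/c for Hoxb2 to Hoxb6, then -0.32, -0.81 and -0.61 for Hoxb7, Hoxb8 and Hoxb9. In B10.D2 they were -0.12, -0.15, -0.14, -0.14 and -0.17, then -0.38, -0.55 and -0.65. None of Hoxb2 to Hoxb6 passed in either strain, with standard errors of 0.09 to 0.15 and adjusted p of 0.341 or more. The strains share the fit but no library in these values.

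Hoxa9 (ENSMUSG00000038227, chr6:52223100-52231089, minus strand), the most precisely measured Hox gene, had small changes. It was 45.0, 46.4 and 48.1 CPM (lowest, median and highest) in BALB/c sham and 40.4, 38.867, 42.9 and 40.8 CPM after SNI. In B10.D2 it stood at 46.1, 48.2, 47.2, 43.6 and 46.6 CPM in sham and at 41.3, 42.9, 40.2, 40.8 and 38.3 CPM after SNI. The groups did not overlap in either strain. The log2 change was -0.19 (SE 0.04) in both strains (adjusted p = 0.00434 in BALB/c, 0.00766 in B10.D2), and it passed in all 7 other settings and without each of the 20 libraries in turn in both strains. Its exons overlap those of the antisense assembled LncRNA5028, which had at most 0.259 CPM.

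Haglr and Hoxd1 share the promoter region printed above. Haglr was 3.93, 4.22 and 5.24 CPM (lowest, median and highest) in BALB/c sham and 3.21, 3.81, 2.88 and 3.204 CPM after SNI. In B10.D2 it was 5.12, 5.34, 4.84, 4.74 and 5.05 CPM in sham and 2.99, 3.57, 3.64, 4.42 and 3.30 CPM after SNI. All SNI libraries of a strain lay below all its sham libraries. The log2 change was -0.45 (SE 0.11, adjusted p = 0.0146) in BALB/c and -0.49 (SE 0.11, adjusted p = 0.0121) in B10.D2. With a term for sample numbers the BALB/c change was -0.41 and did not pass (adjusted p = 0.0636), and without SNI library 65 it was -0.40 (adjusted p = 0.0657). The B10.D2 change passed in all settings run.

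Hoxd1 (ENSMUSG00000042448), the anterior end of HoxD and a gene known from nociceptor development, was 5.36, 6.39 and 7.19 CPM (lowest, median and highest) in BALB/c sham and 4.57, 4.51, 5.37 and 5.33 CPM after SNI. Its lowest sham library, 55, lay within the SNI range. The log2 change was -0.38 (SE 0.11, adjusted p = 0.0322), and it did not pass when any of 6 libraries was left out (sham 51, 56 or 57, or SNI 49, 64 or 70, with adjusted p from 0.0549 to 0.114) or with the term for sample numbers (adjusted p = 0.132). It did not pass either without libraries 49 and 50, those with skeletal muscle genes (adjusted p = 0.0829), or with BALB/c fitted alone (adjusted p = 0.0533). In B10.D2 it was 7.66, 8.14, 6.93, 5.48 and 6.01 CPM in sham and 5.19, 6.43, 5.28, 5.91 and 6.19 CPM after SNI. The log2 change there was -0.21 (SE 0.11) and was not called (adjusted p = 0.33).

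The other HoxD genes were not called after SNI. Hoxd3, Hoxd4, Hoxd8 and Hoxd9 had log2 changes of 0.09, 0.09, 0.07 and -0.06 in BALB/c and 0.30, -0.03, 0.09 and 0.00 in B10.D2, with standard errors of 0.08 to 0.16. Hoxd10 and Hoxd11 had estimates of 0.90 (SE 0.67) and 0.79 (SE 0.75) in BALB/c and 0.70 (SE 0.64) and 0.68 (SE 0.72) in B10.D2, adjusted p from 0.464 to 0.709. With the term for sample numbers the BALB/c estimates became -0.20 (SE 0.66) and -0.49 (SE 0.72), and so changed sign. Those of Hoxa11 and Hoxc11 went from 0.60 to -0.09 and from 0.68 to -1.04. The remaining 14 tested HoxA and HoxC genes lay between -0.25 and 0.42 in both strains and none was called.

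The response to SNI did not differ detectably between strains. The interaction, the change in B10.D2 minus that in BALB/c, was called for 0 of 33 Hox genes (edgeR; 0 at an unadjusted p under 0.05 and 0 by DESeq2) and for 0.0243% of all features. Its approximate 95% interval was -0.39 to 0.32 for Hoxb9, -0.11 to 0.11 for Hoxa9, -0.35 to 0.27 for Haglr, -0.33 to 0.83 for Hoxb8 and -0.13 to 0.47 for Hoxd1. For Hoxd10 it ran from -2.03 to 1.62, so that strain differences of several fold in its change were not detectable here. These intervals take the SE with a normal quantile, which makes them somewhat narrow for so few libraries.

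Between the strains, all Hox genes that passed the test were higher in B10.D2. In sham animals 4 of 33 were called, all higher in B10.D2, among them Hoxa10, Hoxa5 and Hoxc8. The background was 21.6% of all features called and 11.5% called higher in B10.D2, so the share of Hox genes called (12.1%) was below the share of all features. After SNI, 3 of 33 were called, Hoxa10, Hoxa5 and Hoxc4, all higher in B10.D2, against 20.8% of all features called and 10.9% called higher. The estimate was positive for 27 of 33 genes in sham and 25 of 33 after SNI, with medians of 0.17 and 0.15 beside -0.01 for all features in each. It was negative for 18.2% and 24.2% of the 33, beside 51.6% and 51.3% of all features. At an unadjusted p under 0.05 there were 11 and 7. Without libraries 49 and 50 the counts called were 3 and 3, and with the term for sample numbers 2 and 2. For the unadjusted threshold and these settings no share of all features was taken. Spinal cord markers also differed by strain with no overlap, at 6.83 to 13.3 CPM in BALB/c against 14.9 to 17.7 CPM in B10.D2 sham and at 6.03 to 6.75 against 12.99 to 17.5 CPM after SNI. Most of these sums was Aqp4, while Olig2, Mnx1, Chat and Slc6a5 each reached at most 0.251 CPM in a mouse library. Bone and cartilage markers differed by strain with no overlap in sham (4.996 to 7.50 and 7.88 to 10.8 CPM), and the injured-neuron markers after SNI, as given above. The part of these markers in the strain results was not tested.

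Hoxa10 (ENSMUSG00000000938, chr6:52231197-52240854, minus strand), a gene of lumbar patterning, gave the clearest strain difference. It was 19.1, 21.1 and 23.1 CPM (lowest, median and highest) in BALB/c sham and 27.7, 26.9, 28.2, 29.0 and 30.9 CPM in B10.D2 sham. After SNI it was 16.5, 20.1, 23.9 and 21.2 CPM in BALB/c and 26.4, 28.5, 25.5, 26.3 and 24.9 CPM in B10.D2. Every B10.D2 library lay above every BALB/c library. The log2 difference was 0.45 (SE 0.07, adjusted p = 2.92e-05) in sham and 0.36 (SE 0.07, adjusted p = 0.00124) after SNI, and both passed in all settings and without each library in turn. For Hoxa9, the adjacent gene on the same strand, the log2 difference was -0.00 (SE 0.04) under both surgeries.

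Hoxa5 (ENSMUSG00000038253), which patterns cervical and upper thoracic levels, was 3.73, 4.31 and 4.83 CPM (lowest, median and highest) in BALB/c sham and 4.44, 6.0004, 5.92, 6.04 and 4.90 CPM in B10.D2 sham, with overlap in 1 B10.D2 library, 58. After SNI it was 3.34, 3.26, 4.17 and 4.51 CPM in BALB/c and 4.94, 4.62, 5.02, 4.76 and 5.26 CPM in B10.D2, with none. The log2 differences were 0.34 (SE 0.10, adjusted p = 0.0218) and 0.36 (SE 0.12, adjusted p = 0.032). The sham call was lost without BALB/c library 57 or B10.D2 library 60, 67 or 77 (adjusted p from 0.0505 to 0.0676) and with the term for sample numbers (adjusted p = 0.0822). After SNI it was lost without BALB/c library 49 or 64 or B10.D2 library 78 or 90 (adjusted p from 0.0561 to 0.151). It was lost as well with that term (adjusted p = 0.0511), with no filter on low counts (adjusted p = 0.0537) and without libraries 49 and 50 (adjusted p = 0.112).

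Hoxc8 (ENSMUSG00000001657), of thoracic and brachial identity, ran from 4.89 over 5.999 to 7.19 CPM in BALB/c sham and was 8.19, 7.99, 7.09, 7.53 and 6.66 CPM in B10.D2 sham. The groups overlapped. The log2 difference was 0.31 (SE 0.09, adjusted p = 0.0195), and it did not pass without BALB/c library 51 or B10.D2 library 58 or 60 (adjusted p from 0.053 to 0.0593). After SNI it was 0.24 (SE 0.10, adjusted p = 0.116).

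Hoxc4 (ENSMUSG00000075394), a gene of cervical levels, was 7.69, 6.75, 6.71 and 6.95 CPM in BALB/c SNI and 7.96, 7.45, 8.53, 8.64 and 9.30 CPM in B10.D2 SNI. The groups overlapped, and its log2 difference was 0.26 (SE 0.08, adjusted p = 0.0299) after SNI and 0.20 (SE 0.08, adjusted p = 0.062) in sham. The call after SNI was lost without BALB/c library 64, 65 or 70 or B10.D2 library 78 or 90 (adjusted p from 0.0647 to 0.0813) and with no filter on low counts (adjusted p = 0.0806).

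Hoxd1, Haglr and the HoxB genes were not called between strains. The sham estimate was 0.16 (SE 0.10, adjusted p = 0.303) for Haglr, 0.07 (SE 0.10) for Hoxd1 and -0.04 (SE 0.12) for Hoxb9. Hoxd8, on average the highest Hox gene per union exon length though not in CPM, was 24.0 ± 2.1 CPM (SD, n = 6) in BALB/c sham and 27.03 ± 3.06 CPM (SD, n = 5) in B10.D2 sham, a log2 difference of 0.18 (SE 0.07, adjusted p = 0.0986).

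**Figure D4:**
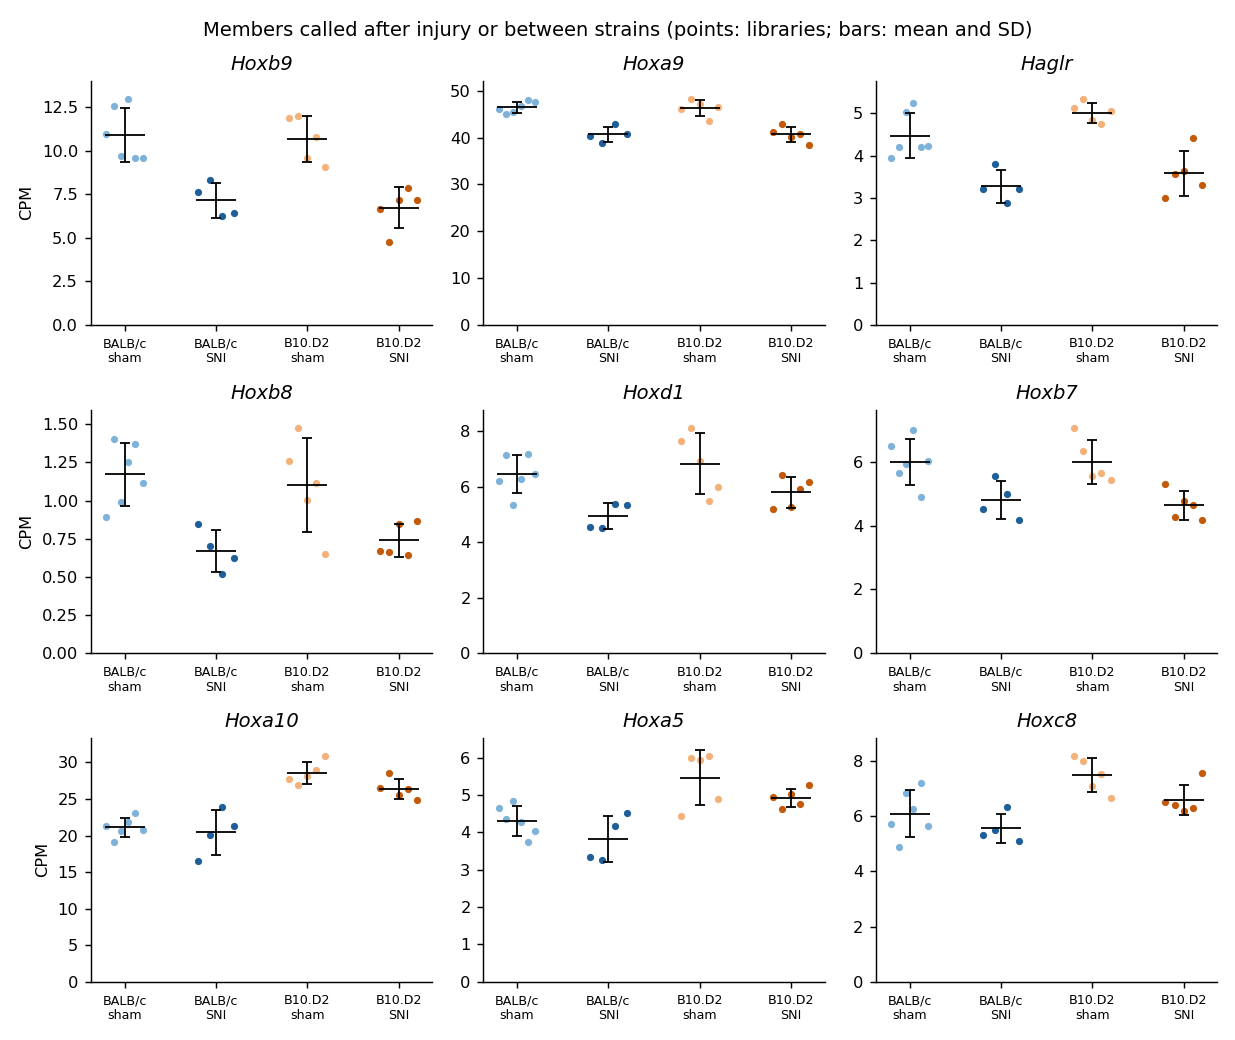
CPM (vertical axes, starting at 0) of 9 Hox genes called in a mouse comparison, with 1 point per library and the mean and SD of each group; horizontal axis, strain and surgery. Hoxb9, Hoxa9 and Haglr are lower after SNI in both strains with no overlap, and Hoxa10 is higher in B10.D2 with no overlap.

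Between the sexes no Hox gene was called: 0 of 33 by edgeR and by DESeq2, beside 0.243% of all features by edgeR. At an unadjusted p under 0.05 there were 2, a threshold at which no share of all features was taken. The estimate, male minus female, was negative for 27 of 33 genes (81.8%), beside 49.3% of all features. Its median was -0.04, beside 0.00 for all features. The estimate was -0.61 (SE 0.31, adjusted p = 0.457) for Hoxa11 and between -0.34 and 0.11 for the other 32.

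Some cofactors and regulators of Hox proteins were called. Of 11 TALE genes, all tested, 1 was higher and 2 lower after SNI in BALB/c, beside 9.69% of all features called, and 1 was higher and 1 lower in B10.D2, beside 4.58%. Meis2, a homeodomain partner of Hox proteins, fell by 0.34 on the log2 scale in BALB/c (SE 0.08, adjusted p = 0.00702) and by 0.47 in B10.D2 (SE 0.08, adjusted p = 0.00057). Tgif1, a TALE repressor, rose by 0.65 (SE 0.12, adjusted p = 0.00131) and 0.49 (SE 0.12, adjusted p = 0.0241). Pknox2 fell by 0.16 in BALB/c (SE 0.05, adjusted p = 0.0457). Between strains in sham, 3 TALE genes were higher in B10.D2 (Pbx4 by 0.42, Meis2 by 0.34 and Pknox2 by 0.28) and 1 was lower (Tgif2, at -0.38), beside 21.6% of all features called. After SNI 2 were higher, Pbx4 by 0.47 and Pknox2 by 0.34, beside 20.8%.

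Of 22 Polycomb and trithorax genes, all tested, 2 were higher after SNI in BALB/c and none was called in B10.D2, against the same 9.69% and 4.58% of all features. Between strains 4 were called in sham and 2 after SNI, against 21.6% and 20.8%. Ezh2, the methyltransferase of Polycomb repressive complex 2, rose by 0.31 (SE 0.09, adjusted p = 0.0361) and Rnf2, a ubiquitin ligase of complex 1, by 0.23 (SE 0.07, adjusted p = 0.0374). Ezh2 was also lower in B10.D2 than in BALB/c, with a log2 difference of -0.82 (SE 0.09, adjusted p = 5.29e-07) in sham and -0.81 (SE 0.10, adjusted p = 1.92e-06) after SNI. Cbx7, a chromodomain subunit, was higher in B10.D2 by 0.40 and 0.44 (SE 0.05 and 0.06, adjusted p = 1.07e-05 and 1.54e-05). In sham the log2 difference was -0.32 for Cbx2 and 0.28 for Phc2, both called. Kdm6a, an X-linked demethylase, was lower in males with a log2 difference of -0.64 (SE 0.04, adjusted p = 7.01e-10), and no other gene of this list was called between the sexes. Of 7 further homeodomain genes of sensory neurons (among them Isl1 and Pou4f1), 0 were called after SNI in either mouse strain by edgeR, with median log2 changes of -0.20 and -0.13, and 3 and 4 were higher in B10.D2 in sham and after SNI, beside 11.5% and 10.9% of all features called higher there. In none of these lists was a gene called for the interaction.

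Among other transcripts of the clusters and their flanks, 13 of 25 listed were tested. After SNI 1 of these was called in BALB/c and none in the other strain (9.69% and 4.58% of all features), and 4 and 2 were called between strains in sham and after SNI (21.6% and 20.8%). Hoxaas2, an antisense RNA of HoxA, was higher in B10.D2 by 0.96 in sham (SE 0.11, adjusted p = 4.59e-07) and by 0.88 after SNI (SE 0.12, adjusted p = 1.16e-05). It ran from 1.78 to 2.54 CPM in BALB/c sham and from 3.48 to 4.42 CPM in B10.D2 sham. Hoxa11os, which varied widely between libraries, was higher in B10.D2 sham by 1.33 (SE 0.42, adjusted p = 0.0253). Its sham ranges overlapped, at 0.0501 to 0.328 CPM in BALB/c and 0.263 to 1.04 CPM in B10.D2. Its value with the term for sample numbers is not given here. Hotairm1, a noncoding RNA of HoxA, was higher in B10.D2 SNI by 0.61 (SE 0.13, adjusted p = 0.00192). Of the flanking genes, Skap2 (beside HoxA) was higher in B10.D2 sham by 0.18 (adjusted p = 0.0161). Skap1, beside HoxB, was lower in B10.D2 sham with a log2 difference of -0.80 (SE 0.17, adjusted p = 0.00166) and fell after SNI in BALB/c by 0.75 (SE 0.19, adjusted p = 0.0124). No other transcript of this list was called after SNI in either strain.

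The deposited assembly held 4 unannotated LncRNAs within 50000 bases of the clusters, all inside them. LncRNA6163 (chr11:96294126-96338753, plus strand, 7 exons) was the most abundant, at 18.8 to 28.2 CPM over 13045 exon bases, and was not called in any comparison. LncRNA5027 (chr6:52159694-52171433, plus strand) lies antisense to Hoxa2 over 26.8% of its exon bases and had 0.652 to 1.74 CPM. In BALB/c SNI it was 0.778, 1.003, 0.959 and 0.652 CPM and in B10.D2 SNI 1.06, 1.33, 1.503, 1.74 and 1.74 CPM. Every B10.D2 SNI library was above every BALB/c SNI library, and the log2 difference was 0.79 (SE 0.20, adjusted p = 0.00764). In sham the difference was 0.11 (SE 0.18, adjusted p = 0.751) and not called, and neither was the interaction of 0.68 (SE 0.27). LncRNA5028, antisense to Hoxa9, was too low to test (0.0279 to 0.259 CPM) and LncRNA6280, antisense to Hoxb4, had 0.056 to 0.342 CPM and no call. Library preparation kept strand, and the strand setting of the counting is not given in the sources used here, so a sense and antisense pair may share reads: Hoxb3 has 52.9% and Hoxa11 35.0% of its exon bases over exons of the other strand.

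Of the splice junctions in the deposited junction list, 178 lay inside the clusters, 118 of them on the strand of the Hox genes, and 85 were introns of the annotation. Junctions covered 4 of 7 annotated introns of Haglr, 4 of 4 of Hoxa9 and 1 of 1 of Hoxd1, and none touched Hoxa13 or Hoxb1. In all, 9 joined exons of 2 Hox genes: 4 in HoxA (Hoxa9 to Hoxa10, with 3 junctions, and Hoxa6 to Hoxa3), 1 in HoxC (Hoxc6 to Hoxc4) and 4 in HoxD (Hoxd11 to Hoxd10, Hoxd9 and Hoxd8, and Hoxd4 to Hoxd3). The list gives no read counts, so how common these junctions are was not measured.

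In rat, 22 of the 35 Hox entries had counts and 13 were listed at 0 in all 8 libraries: the 10 HoxB genes, Hoxa11, Hoxd12 and Hoxd13. These zeros cannot be read as silence. In those rat data a total of 17036 out of 39281 features were at 0, among them Actb, Tubb3 and Nefh, which neurons need, and all 15 coding genes with a rat symbol that lie within 500000 bases of HoxB in mouse. No rat entry carried the symbol Hoxa4, Hoxa5, Hoxa10, Hoxa13, Hoxd8 or Haglr, and 2 entries shared the symbol Hoxa9 (ENSRNOG00000047484 and ENSRNOG00000048146, each at most 0.249 CPM). No gene lengths were at hand for rat, so no level was compared between genes. Per library, the entries of HoxA summed to 5.15 to 7.24 CPM, of HoxC to 40.5 to 51.9 CPM and of HoxD to 32.6 to 51.6 CPM.

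After SNT, 2 of 15 tested Hox genes were called, Hoxd1 lower and Hoxa3 higher, beside 27.4% of all 13690 features. At an unadjusted p under 0.05 there were 4 and DESeq2 called 1, counts for which no share of all features was taken. The median change was 0.06 beside 0.00 for all features. Hoxd1 (ENSRNOG00000001572) was 8.62, 9.27, 5.77 and 3.71 CPM in sham and 3.29, 0.381, 0.167 and 0.0655 CPM after SNT. All SNT libraries lay below all sham libraries, and sham library 4 and SNT library 1 were the nearest to each other. The log2 change was -2.83 (SE 0.81, adjusted p = 0.0293). Without those 2 libraries, a setting chosen after seeing the data, it was -5.16 (adjusted p = 2.86e-05), and without SNT library 1 alone it was -4.96. It was called without SNT library 1 or sham library 4 but not without any 1 of the other 6 libraries (adjusted p from 0.0623 to 0.0809). These 2 libraries also lay between the groups over all features tested. On the first principal component (68.5% of variance) sham library 4 stood at -9.24 and SNT library 1 at 1.12. The other sham libraries stood at -59.3 to -45.7 and the other SNT libraries at 39.7 to 62.4. Schwann cell and fibroblast markers had medians of 1087 and 1319 CPM in sham and 1728 and 2164 CPM after SNT, and sensory neuron markers of 6407 and 5398 CPM. Their part in the Hoxd1 result was not tested.

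Hoxa3 (ENSRNOG00000006281), a gene of anterior segments, was 1.66, 2.01, 1.92 and 1.37 CPM in rat sham and 2.72, 3.21, 3.22 and 2.03 CPM after SNT. The groups did not overlap, the closest pair being 2.01 and 2.03 CPM. Its log2 change of 0.68 (SE 0.23, adjusted p = 0.0473) was lost in DESeq2 (adjusted p = 0.056), with a replicate block for the first number in the library titles (adjusted p = 0.0613), and without any of 7 of the 8 libraries. In mouse the Hoxa3 changes after SNI were 0.03 (SE 0.12) and -0.10 (SE 0.12).

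The other 13 tested rat genes were not called. Hoxc4 and Hoxc5 had log2 changes of 0.43 (SE 0.17, adjusted p = 0.0853) and 0.38 (SE 0.15, adjusted p = 0.0845), Hoxa6 and Hoxa7 -0.63 (SE 0.35) and -0.67 (SE 0.40). Hoxa2 and Hoxc10 had -0.15 (SE 0.21) and 0.23 (SE 0.19), and Hoxc6, Hoxc8, Hoxc9, Hoxd3, Hoxd4 and Hoxd9 lay between -0.07 and 0.15. Hoxd4, the highest in CPM, was 14.8, 15.6, 13.3 and 15.6 CPM in sham and 15.4, 16.2, 14.6 and 18.2 CPM after SNT, a log2 change of 0.12 (SE 0.12). Hoxd10 was 2.65, 5.55, 2.21 and 5.02 CPM in sham and 2.84, 6.53, 3.67 and 5.18 CPM after SNT, a log2 change of 0.23 (SE 0.35). Of the 7 entries with counts that were too low to test, Hoxd11 had the most, at most 34 in a library.

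**Figure D5:**
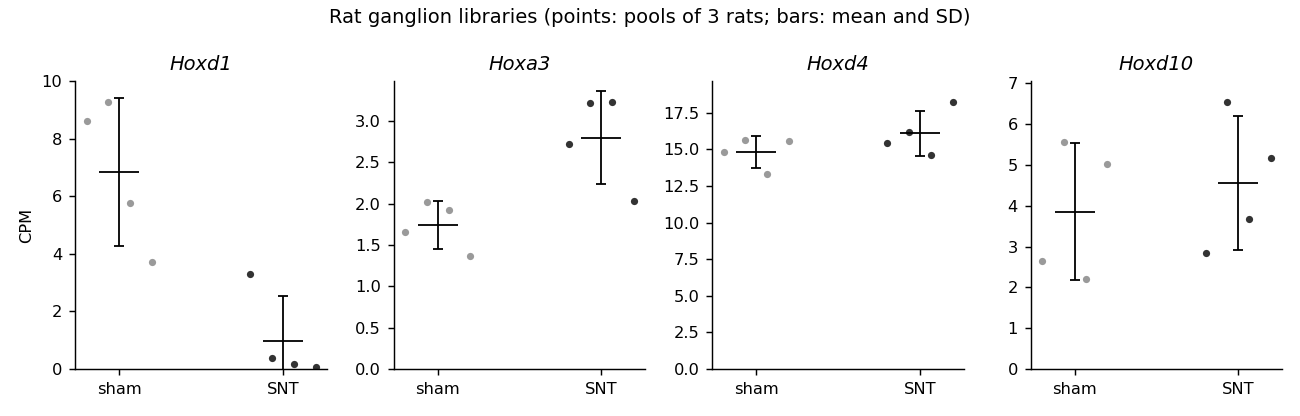
CPM (vertical axes, starting at 0) of Hoxd1, Hoxa3, Hoxd4 and Hoxd10 in the 8 rat libraries, with 1 point per pool of 3 rats and bars for the mean and SD, the lower bar of Hoxd1 after SNT running below 0 and cut there; horizontal axis, surgery. Hoxd1 lies at or below 3.29 CPM in the SNT libraries and at or above 3.71 CPM in sham, while Hoxd4 lies between 13.3 and 18.2 CPM in all 8.

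Of the 6 TALE genes tested in rat, 2 were higher and 1 was lower after SNT, where 27.4% of all features were called. Of the 10 Polycomb and trithorax genes tested 4 were higher, of the 4 flanking genes 2 were lower, and the 1 further homeodomain gene tested was lower, with a log2 change of -1.09. Tgif1 rose by 0.83 (SE 0.22, adjusted p = 0.0227) and Tgif2 by 0.70 (SE 0.17, adjusted p = 0.0188), while Pknox2 fell by 0.61 (SE 0.18, adjusted p = 0.0324). Ezh2 rose by 0.97 (SE 0.28, adjusted p = 0.0303), Phc1 by 0.53, Phc2 by 0.47 and Kmt2b by 0.50. Mtx2 and Lnpk, the flanking genes of HoxD, fell by 0.40 and 0.44 (adjusted p = 0.0492 and 0.0325).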

How the data were processed

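RNA-seq was analysed from 20 mouse and 8 rat dorsal root ganglion libraries, and 2 further labelled mouse samples were not analysed here. The deposited tables hold raw read counts per gene, which the authors made with STAR, SAMtools and HTSeq on Ensembl release 87 (mouse, GRCm38) and release 90 (rat, Rnor_6.0) from 100-base paired reads. The strand setting of the counting is not given in the sources used here. Separate deposited tables hold the fold changes and p-values of the study, and only the gene symbols were taken from them. The rat LncRNA and junction files were not used.

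Counts were fitted in edgeR 4.0.16 (R 4.3.3) with TMM factors, filterByExpr and the quasi-likelihood test, with sex, strain, surgery and their interaction in mouse and surgery in rat. P-values were two-sided and adjusted by Benjamini-Hochberg over all features tested (24685 in mouse, 13690 in rat), and an adjusted p under 0.05 was a call. The SE is the log2 change divided by the root of F. DESeq2 1.42.0 was an alternative. Exon lengths came from GENCODE M21, in which 99.5% of the Ensembl identifiers were found. On simulated data with the libraries of BALB/c SNI, B10.D2 SNI, the strain comparison and rat, 98, 100, 99 and 96 of 100 genes changed 4-fold were recovered, and 88, 88, 90 and 67 of 100 changed 2-fold. Unchanged features called numbered 7, 5, 9 and 7. Changes were put only into features above a minimum mean count. The called mouse Hox changes were all under 2-fold, so the simulation gives no recovery rate at their size. Precision is limited by 4 to 6 libraries a group, and floors cover counting error only.

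The Hox genes and the gene lists were chosen with earlier results of these data known. Full values are given for each Hox gene called in any comparison and for Haglr with the other HoxD genes, and for the called genes of the cofactor, Polycomb and cluster lists. The values of 1 gene are not reported here, and it enters only the counts and sums over all genes.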

Additional observations from a re-analysis of the deposited data

Results flagged for a closer look

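Of 162 pairs of a Hox gene and a group of 4 to 6 libraries, 11 had 1 library further from the others than Dixon's 95% limit, where chance flags about 1 in 20 groups. In BALB/c sham, Hoxa6 was 1.74 CPM in library 71 and 2.09 to 2.26 CPM in the others. In BALB/c SNI library 49, which also held skeletal muscle RNA, Hoxa7 was 20.98 CPM against 17.9 CPM in each of the others, and Hoxd8 was 22.4 CPM against 25.7 to 26.3 CPM. In B10.D2 sham, Hoxb2 was 2.85 CPM in library 67 (others 4.10 to 4.41) and Hoxd3 was 1.32 CPM in library 58 (others 2.26 to 2.47). In B10.D2 SNI, Hoxc8 was 7.56 CPM in library 90 (others 6.21 to 6.53) and Hoxd8 was 34.0 CPM in library 76 (others 26.8 to 28.5), the library with the lowest injured-neuron markers of its group. In rat SNT, Hoxd1 was 3.29 CPM in library 1 against 0.0655 to 0.381 CPM, and Hoxc9 in the same library was 4.68 CPM against 3.08 to 3.11 CPM. Hoxc6 was 11.4 CPM in rat SNT library 2 (others 9.63 to 9.74) and Hoxd3 was 7.01 CPM in rat sham library 2 (others 4.97 to 5.21).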

How the results depend on the processing

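No gene called in a comparison changed direction there in any setting run. The estimates of Hoxd10, Hoxd11, Hoxa11 and Hoxc11 after SNI in BALB/c, none of them called, turned negative with the term for sample numbers, and some of their uncalled estimates in the strain, sex and interaction comparisons also changed sign. Counts of Hox genes called after SNI in BALB/c (5) became 2 with the term for sample numbers and 3 to 5 when 1 library was left out, the 3 arising without SNI library 65 or 70. In B10.D2 the 4 became 3 to 5. Between strains in sham the 4 became 2 with the term for sample numbers and 1 to 6 without 1 library, with 1 without B10.D2 sham library 60 and 2 without BALB/c sham library 51 or B10.D2 sham library 67. Between strains after SNI the 3 became 1 without a filter on low counts and 1 to 4 without 1 library, with 1 without BALB/c SNI library 64 or B10.D2 SNI library 78 or 90. The interaction and the sex comparison stayed at 0 in 6 other settings each. In rat the 2 became 1 with DESeq2, 1 without a filter, 1 with a replicate block for the first number in the library titles, 1 without both sham library 4 and SNT library 1, and 0 to 1 without 1 library, with 0 without sham library 1, 2 or 3 or SNT library 2 or 3. What these numbers stand for is not given in the sources used here, and they did not pair the rat libraries, the correlations of same-numbered libraries being 0.05, -0.24, -0.09 and -0.07, and with the block Hoxd1 was -3.54 (adjusted p = 0.0287). The causes were not tested, and no share of all features was taken in the other settings. Hoxa9, Hoxb9 and Hoxa10 were called in all settings of their comparisons. Low counts limit Hoxb8.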
